A study of Mus musculus with 24 samples.

Results

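The type I interferon-stimulated genes are genes that cells switch on in response to interferons alpha and beta, and a chosen list of 35 was examined here. Members were chosen by gene symbol, as the probe sets whose only symbol in the platform's gene table was on the list, with the brightest probe set over all arrays standing for a gene that had several. That gave 33 genes out of 18193 with a probe set of 1 symbol, and all 33 were bright enough to be among the 13117 genes tested. Isg15 and Ifi44 had no probe set of their own symbol alone, and their levels were not analysed here.

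Type I interferons bind a receptor made of Ifnar1 and Ifnar2, whose kinases Jak1 and Tyk2 activate transcription factors such as Stat2. With Irf9, Stat2 is part of a complex that binds the interferon-stimulated response element (ISRE), a short repeat of GAAA in the promoters of its targets. The products include sensors of viral nucleic acid, proteins that block viral replication and brakes such as Usp18 that shut the receptor off again, and liver cells as well as Kupffer cells, the resident macrophages of the liver, carry the receptor.

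Liver RNA came from 24 male BALB/c mice, 6 in each of 4 groups, with 1 Affymetrix 3' expression array per mouse. Controls were untreated mice on the purified AIN93G diet, and no vehicle injection is described for them. The STZ group received 185 mg/kg streptozotocin, an alkylating glucose analogue toxic to pancreatic beta cells, and ate the same diet. The 2 quercetin groups received streptozotocin and ate AIN93G with 0.1% or 0.5% quercetin, a plant flavonol, for 14 days. Mice were 6 weeks old at the start, and 1 week after the injection those with a non-fasting glucose between 230 and 400 mg/dL were allotted to the 3 diets, so the injected mice were selected and the controls were not. Cages held 3 mice, and no mouse is tied to a cage. Array means of the deposited intensities ran from 61.0 to 102, array correlations from 0.969 to 0.987, and 8 of 8 measured hepatocyte markers passed the brightness filter with sums of 39973 to 41626 in controls and 39848 to 43510 in STZ mice. Of the 24 arrays, replicates 5 and 6 of the 0.5% quercetin group stood apart from their group in the mean level of the members and in summed Kupffer cell markers. In both measures they lay within the control range, and results for that group are therefore given with and without them.

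The stretches below come from RefSeq promoters (build GRCm38.p6), which held an entry for 26 of the 35 members, covering 250 bases before to 50 after the start site. The ISRE core, searched as GAAA, any 2 bases and GAAA, or on the other strand as TTTC, any 2 bases and TTTC, was present in at least 1 window of 10 of the 26 genes (38.5%), against 3.99% of 27018 genes with an entry. Of the 10 genes with an entry that rose in STZ livers 4 held it (40%), and of the 14 tested genes with an entry that did not pass 5 held it (35.7%). Of the 2 members with an entry whose levels were not measured, Isg15 held it and Ifi44 did not. The second element searched, the GAS site of TTC, any 3 bases and GAA, which reads the same on both strands and can overlap an ISRE, was present for 6 of the 26 genes (23.1%) and for 9.55% of all genes. The 4 windows shown belong to the members that rose and held the ISRE core, which stands in capitals. They are Rsad2 at chr12:26456453-26456702, minus strand, with the core 120 to 111 bases before the start; Ifit1 at chr19:34640639-34640888, plus strand, with 1 core 104 to 95 and another 85 to 76 bases before it; Bst2 at chr8:71537473-71537722, minus strand, with 2 overlapping cores 130 to 121 and 124 to 115 bases before it; and Ifih1 at chr2:62646206-62646235, minus strand, with the core 33 to 42 bases after it. A match describes letters only, and no binding was measured.
Rsad2: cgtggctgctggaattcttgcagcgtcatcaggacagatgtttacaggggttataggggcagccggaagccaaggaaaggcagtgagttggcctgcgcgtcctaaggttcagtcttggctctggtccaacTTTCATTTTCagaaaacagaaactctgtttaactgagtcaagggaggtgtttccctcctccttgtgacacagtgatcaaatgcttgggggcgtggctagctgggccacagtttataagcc
Ifit1: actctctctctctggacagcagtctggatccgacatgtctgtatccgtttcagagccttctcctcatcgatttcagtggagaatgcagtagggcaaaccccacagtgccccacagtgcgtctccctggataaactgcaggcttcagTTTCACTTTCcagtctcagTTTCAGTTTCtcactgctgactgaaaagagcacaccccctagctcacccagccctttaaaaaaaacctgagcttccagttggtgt
Bst2: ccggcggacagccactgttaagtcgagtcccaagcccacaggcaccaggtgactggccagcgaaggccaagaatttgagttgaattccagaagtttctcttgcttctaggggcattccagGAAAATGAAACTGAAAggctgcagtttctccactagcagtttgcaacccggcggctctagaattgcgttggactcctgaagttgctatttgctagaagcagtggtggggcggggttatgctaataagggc
Ifih1: gagaagagaatcGAAACAGAAAccgatctg

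The first comparison asked how livers of streptozotocin-treated mice differed from those of untreated mice on the same diet. Of the 33 genes 15 were higher in STZ livers and 0 were lower (limma adjusted p under 0.05), while over all 13117 genes tested 2.03% were higher and 1.69% were lower. At an unadjusted p under 0.05, 22 members were higher and 0 lower, against 7.32% and 9.41% of all genes. With 1 mouse left out of the fit the count of 15 fell to between 7 and 13, and it was 7 to 9 without control replicate 2, 5 or 6 or STZ replicate 3 or 6. The share of all genes in those fits is not given here. The mean was higher in STZ mice for 32 of the 33 members and for 44.8% of all genes. The median difference was 0.45 on the log2 scale for members and -0.02 for all genes. For 14 members the lowest STZ mouse exceeded the highest control, which held for 1.96% of all genes. Differences are of log2(normalized intensity + 16) and folds are on that scale, which understates the change of dim genes. In whole liver, more cells of a type and more RNA per cell cannot be told apart.

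**Figure D1:**
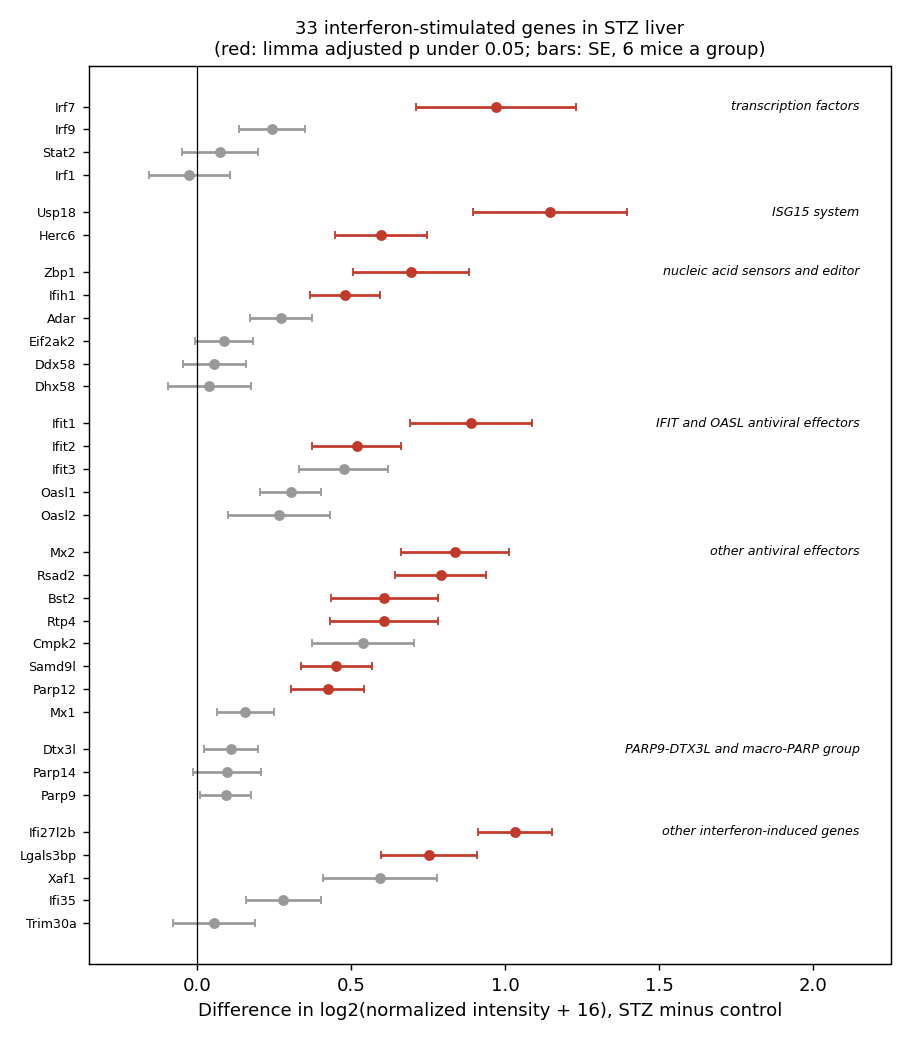
Difference between STZ and control livers in log2(normalized intensity + 16) for 33 interferon-stimulated genes grouped by role, with bars of 1 SE and 6 mice a group. The 15 red genes passed the test, from Parp12 at 0.42 to Usp18 at 1.15, and Irf1 at -0.02 is the gene left of the zero line.

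Among the transcription factors, 1 of 4 rose. Irf7, which amplifies the interferon response, had intensities from 56.5 to 103 (median 75.4) in controls and from 149 to 200 (median 164) in STZ livers. The lowest STZ mouse stood above the highest control. The difference was 0.97 (SE 0.26, limma adjusted p = 0.0325), or 1.96-fold. The other 3 did not pass. Irf9 and Stat2, partners in the complex that binds the ISRE, differed by 0.24 (limma adjusted p = 0.243) and 0.08 (limma adjusted p = 0.819). Irf1, a factor induced by interferons and by other cytokines, differed by -0.02 (limma adjusted p = 0.955). Its controls were scattered from 59.96 to 121 and its STZ mice lay close together, from 81.9 to 86.9.

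Both measured members of the ISG15 system, which attaches and removes the ubiquitin-like protein ISG15, rose. Usp18, the protease that removes ISG15 and a brake on the receptor, had intensities from 36.8 to 65.6 (median 45.8) in controls and from 90.7 to 219 (median 119) in STZ livers. There was no overlap, and STZ replicate 6 was the highest. At 1.15 (SE 0.25, limma adjusted p = 0.00926), or 2.21-fold, it had the largest difference of the 33 genes on this scale. With a pseudocount of 1 in place of 16, the dim genes Ifi27l2b, at 1.99, and Mx2, at 1.92, differed by more than Usp18, at 1.37. Herc6, the mouse ligase that attaches ISG15, ran from 23.9 to 47.2 (median 25.2) in controls and from 42.5 to 62.4 (median 56.2) in STZ mice, of which 5 lay above every control. It differed by 0.60 (SE 0.15, limma adjusted p = 0.0214). Its 3 other probe sets differed by 0.25 to 0.36 in the same direction.

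Of 6 genes for nucleic acid sensors, counting the RNA editor Adar, 2 rose. Ifih1, the sensor of long double-stranded RNA also called MDA5 whose core sequence is shown above, went from 106 to 141 (median 129) in controls to 166 to 202 (median 182) in STZ livers. The groups did not overlap, and the difference was 0.48 (SE 0.11, limma adjusted p = 0.0159). Zbp1, a sensor of Z-form nucleic acid that can start necroptosis, was dim, at 9.07 to 18.8 (median 13.1) in controls and 25.2 to 43.2 (median 29.8) in STZ mice. Every STZ mouse was above every control, with a difference of 0.69 (SE 0.19, limma adjusted p = 0.0356). The 2 relatives of Ifih1 did not pass. Ddx58, the sensor RIG-I, differed by 0.06 (limma adjusted p = 0.838) and Dhx58, their regulator LGP2, by 0.04 (limma adjusted p = 0.921). The kinase Eif2ak2, known as PKR, differed by 0.09 and Adar by 0.27 (limma adjusted p = 0.701 and 0.147).

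Of the 5 IFIT and OASL genes, whose IFIT products bind foreign RNA and block its translation, 2 rose. Ifit1 had intensities from 50.9 to 63.6 (median 59.5) in controls and from 101 to 183 (median 113) in STZ livers. All STZ mice lay above the controls, with replicate 6 well above its group. The difference was 0.89 (SE 0.20, limma adjusted p = 0.0107). Ifit2 was dim, from 3.64 to 14.1 (median 9.41) in controls and from 15.2 to 26.0 (median 20.2) in STZ mice. Its groups did not overlap, and it differed by 0.52 (SE 0.14, limma adjusted p = 0.0398). Ifit3 differed by 0.48 with 5 STZ mice above every control but did not pass (limma adjusted p = 0.0689). Oasl1 at 0.30 and Oasl2 at 0.27, relatives of the oligoadenylate synthetases, did not pass either.

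Of the 8 other antiviral effectors 6 rose. Rsad2, or viperin, which makes a chain-terminating nucleotide, had intensities from 63.9 to 115 (median 94.3) in controls and from 139 to 187 (median 173) in STZ livers. The groups did not overlap, and the difference was 0.79 (SE 0.15, limma adjusted p = 0.00286). Its 2 other probe sets differed by 0.39 and 0.64. Cmpk2, its genomic neighbour and a mitochondrial nucleotide kinase, differed by 0.54 and did not pass (limma adjusted p = 0.0680). Mx2, an interferon-induced GTPase of the dynamin family, was near the floor in controls at 2.20 to 11.1 (median 6.00) and ran from 17.1 to 28.8 (median 23.9) in STZ livers. Every STZ mouse lay higher than every control, with a difference of 0.84 (SE 0.17, limma adjusted p = 0.00675). Its neighbour Mx1 stayed dim, with medians of 5.72 and 8.56 and a difference of 0.16 that did not pass (limma adjusted p = 0.410).

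Bst2, or tetherin, which holds budding virus at the cell surface, was among the brightest members at 296 to 393 (median 361) in controls and 435 to 771 (median 533) in STZ livers. The groups did not overlap, and the difference was 0.61 (SE 0.17, limma adjusted p = 0.0462). Rtp4, a chaperone of membrane receptors with antiviral activity, ran from 122 to 156 (median 137) in controls and from 175 to 284 (median 217) in STZ mice, again without overlap, and passed narrowly at 0.61 (SE 0.18, limma adjusted p = 0.0499). Several of the 15 calls were lost in many of 25 other settings: Rtp4 kept its call in 5, Bst2 in 7, Parp12 in 10, Zbp1 in 12, Ifit2 in 13 and Irf7 in 15. Parp12, an ADP-ribosyltransferase, ran from 73.7 to 113 (median 101) in controls and from 122 to 146 (median 133) in STZ mice, and differed by 0.42 (SE 0.12, limma adjusted p = 0.0425) with no overlap. Samd9l, a restrictor of translation in infected cells, ran from 28.9 to 42.5 (median 35.4) in controls and from 36.9 to 66.3 (median 58.4) in STZ mice. It differed by 0.45 (SE 0.11, limma adjusted p = 0.0230), and STZ replicate 2 alone lay within the control range.

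Of the 3 genes of the PARP9-DTX3L group, ADP-ribosyl- and ubiquitin-transferases and the macrodomain protein Parp14, 0 passed in either direction by limma, and 0 of them had an unadjusted p under 0.05. Control medians were 208 for Parp9, 141 for Dtx3l and 49.9 for Parp14, and the differences lay between 0.09 and 0.11. A second Dtx3l probe set, with a mean intensity of 132 against 150 over all arrays, differed by 0.23.

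Among the 5 remaining interferon-induced genes 2 rose. Ifi27l2b, of the family of small hydrophobic membrane proteins named after IFI27, was dim in controls at 3.70 to 11.5 (median 8.61) and ran from 20.5 to 46.3 (median 34.3) in STZ livers. The groups were far apart, and with a difference of 1.03 (SE 0.12, limma adjusted p = 2.72e-05) it had the smallest p of the 33 genes. Its probe set is of the platform's x class, whose probes can also bind relatives. Lgals3bp, a secreted glycoprotein that binds galectins, ran from 105 to 130 (median 114) in controls and from 181 to 220 (median 207) in STZ livers. No mouse overlapped, and the difference was 0.75 (SE 0.16, limma adjusted p = 0.00637). Xaf1, a promoter of apoptosis, had all STZ mice (84.4 to 109) above all controls (44.0 to 65.4) but did not pass at 0.59 (SE 0.19, limma adjusted p = 0.0733). Ifi35 at 0.28 and the ubiquitin ligase Trim30a at 0.06 did not pass. A second Trim30a probe set differed by 0.28. Of 22 other probe sets of members over the filter, 19 differed in the direction of the one used. The 3 with the opposite sign were of Stat2 at -0.08, Ddx58 at -0.05 and Eif2ak2 at -0.04.

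**Figure D2:**
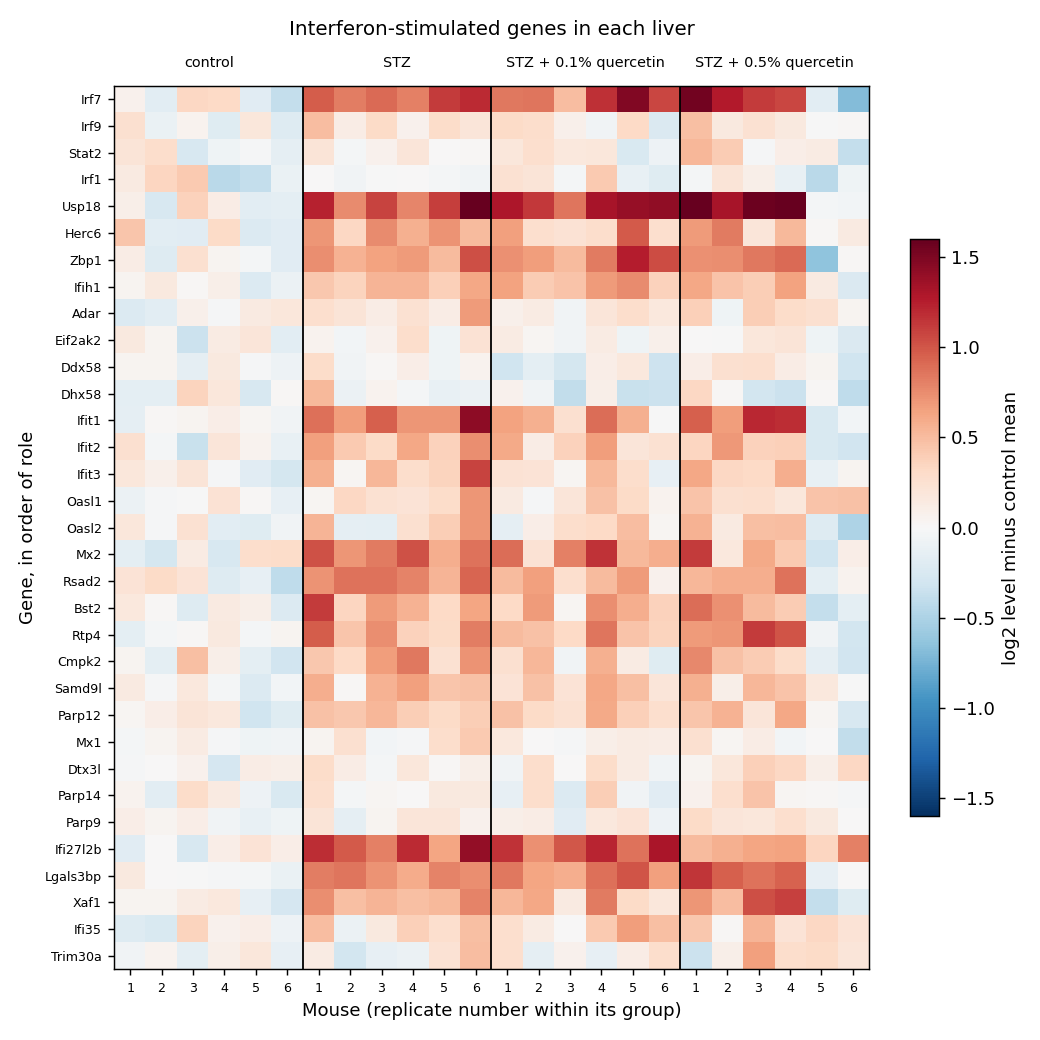
Each cell is the log2(normalized intensity + 16) of 1 gene in 1 liver minus the control mean of that gene, with genes in order of role and mice by replicate number in 4 groups. Usp18, Irf7, Ifit1, Ifi27l2b and Lgals3bp are red across the STZ mice, while replicates 5 and 6 of the 0.5% quercetin group look like controls for most genes but not for Ifi27l2b.

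Lists of pathway genes that are no members were examined in the same comparison. Of 19 listed interferon genes 9 had a probe set and 2 were bright enough to test, Ifna1 at 0.22 and Ifna2 at 0.17, and neither passed (limma adjusted p = 0.470 and 0.548). Ifnb1, the gene for interferon beta, lay under the filter with group medians from 2.07 to 4.93. Of 9 receptor and signalling genes 1 was higher, the kinase Jak1 at 0.29 (SE 0.08, limma adjusted p = 0.0453). Ifnar1 at -0.04, Ifnar2 at -0.10 and Tyk2 at -0.06 did not pass. Of 9 negative regulators 1 was lower, Irf2, a repressor at ISRE sites, at -0.43 (SE 0.11, limma adjusted p = 0.0231). Of 14 genes that sense nucleic acid upstream of interferon 1 was lower, the transcription factor Irf5 at -0.57 (SE 0.12, limma adjusted p = 0.00684), while Irf3 at -0.04 did not pass. Of 53 other interferon-induced genes 5 were higher and 0 lower, against 2.03% and 1.69% of all genes. At an unadjusted p under 0.05, 15 were higher and 1 lower, against 7.32% and 9.41% of all genes. The 5 were Oas1a at 0.88, an activator of RNase L, Ifi27 at 0.88 and Ifi27l2a at 0.52, relatives of Ifi27l2b, Mndal at 0.46 and Shisa5 at 0.41.

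Markers of other liver cells were examined in the same livers. Of 12 tested Kupffer cell and macrophage markers 4 were higher in STZ livers, namely Cd5l at 0.58, C1qa at 0.48, C1qb at 0.62 and Mpeg1 at 0.70, and 0 were lower. All 12 means were higher, and 11 of the 12 were higher at an unadjusted p under 0.05. Of all genes, 44.8% had a higher mean and 7.32% were higher at an unadjusted p under 0.05. By adjusted p, 2.03% of all genes were higher and 1.69% lower (limma). The summed level of the 13 measured Kupffer markers was 1385 to 1786 in controls and 1933 to 2470 in STZ mice, while the Kupffer-specific Clec4f at 0.26 and Vsig4 at 0.36 did not pass and Marco lay under the filter. Of the markers of plasmacytoid dendritic cells, a main source of interferon alpha, Ly6d was higher by 2.27 and the other 4 tested did not pass, including Siglech at 0.09. One of the 4, at -0.21, was lower at an unadjusted limma p under 0.05. The median of the 5 tested was 0.09, and Ccr9 lay under the filter. Among B and plasma cell markers 2 of 4 were lower, Ighm at -1.63 and Jchain at -0.58, and the T and NK cell genes Cd3e, Cd4, Nkg7 and Ncr1 lay under the filter. Of endothelial markers 1 of 8 was higher, Lyve1 at 1.02, and of stellate cell markers 1 of 9, Dcn at 0.41, while 0 of 5 neutrophil, 0 of 3 T and NK cell and 0 of 3 bile duct markers passed (limma). The 3' minus 5' difference of the Gapdh probe sets, a sign of RNA quality, was -0.04 ± 0.17 (SD, n = 6) in controls and -0.34 ± 0.10 (SD, n = 6) in STZ mice (exact permutation test, two-sided, p = 0.00433, 0.0390 adjusted over 9 tests). The same difference of the actin probe sets was 1.24 ± 0.19 (SD, n = 6) in controls and 1.12 ± 0.23 (SD, n = 6) in STZ mice. It did not pass the exact permutation test (p = 0.331, 0.596 adjusted over the same 9 tests). With the Gapdh difference as a covariate 1 of 33 members, Ifi27l2b, remained higher, against 0.0305% of all genes in that fit. The median difference of members was then 0.34 and 29 of 33 means were higher. The part of these cells and of RNA quality in the rises was not tested.

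The effect of quercetin was asked by comparing each quercetin group with the STZ group. At 0.1% quercetin 0 members passed in either direction, as did 0% of all genes (limma), and at an unadjusted p under 0.05 there were 0 higher and 1 lower, against 2.71% and 2.52% of all genes. That gene was Rsad2, which ran from 95.8 to 154 (median 135) and differed by -0.34 (SE 0.15, limma adjusted p = 0.908). Means were below those of STZ mice for 23 of 33 members and above for 10 (52.1% of all genes), with a median of -0.08 against 0.01 for all genes. Genes of the IFIT and OASL group and the other antiviral effectors all had lower means, between -0.40 for Ifit1 and -0.04, without passing. Usp18 differed by 0.09 (SE 0.25) and Irf7 by 0.02 (SE 0.26).

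At 0.5% quercetin 0 members passed against STZ, as did 0% of all genes (limma), and 4 were lower and 0 higher at an unadjusted p under 0.05, against 3.88% and 3.63% of all genes. These were Ifi27l2b at -0.45 (SE 0.12, limma adjusted p = 0.365), Mx2 at -0.49 (SE 0.17, 0.572), Rsad2 at -0.38 (SE 0.15, 0.576) and Ifit2 at -0.31 (SE 0.14, 0.633). Means were below STZ for 25 of 33 members and above for 8 (50.5% of all genes), with a median of -0.14. Without replicates 5 and 6 they were below for 12, the median was 0.03, and 0 again passed. Ifi27l2b was the one of those 4 that kept its size, at -0.44 (SE 0.13) without the 2 mice, where Mx2 was at -0.26, Rsad2 at -0.15 and Ifit2 at -0.07. Its 6 intensities at 0.5% were 17.5, 19.0, 20.7, 21.0, 13.9 and 25.2. All lay above every control, and 3 of them lay below every STZ mouse.

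Between the 2 doses 0 members passed in either direction, as did 0% of all genes (limma), with 1 higher and 2 lower at 0.5% at an unadjusted p under 0.05, against 3.82% and 4.52% of all genes. Ifi27l2b at -0.46 (SE 0.12, limma adjusted p = 0.355) and Zbp1 at -0.40 were lower and Ddx58 at 0.21 was higher, and 5 of 6 mice at 0.5% had less Ifi27l2b than every mouse at 0.1%, where it ran from 23.2 to 42.3 (median 33.7). Without replicates 5 and 6 of the 0.5% group, Ifi27l2b was at -0.46 (SE 0.13), Zbp1 at -0.03 and Ifit1 at 0.52 (SE 0.15), and 0 members passed.

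**Figure D3:**
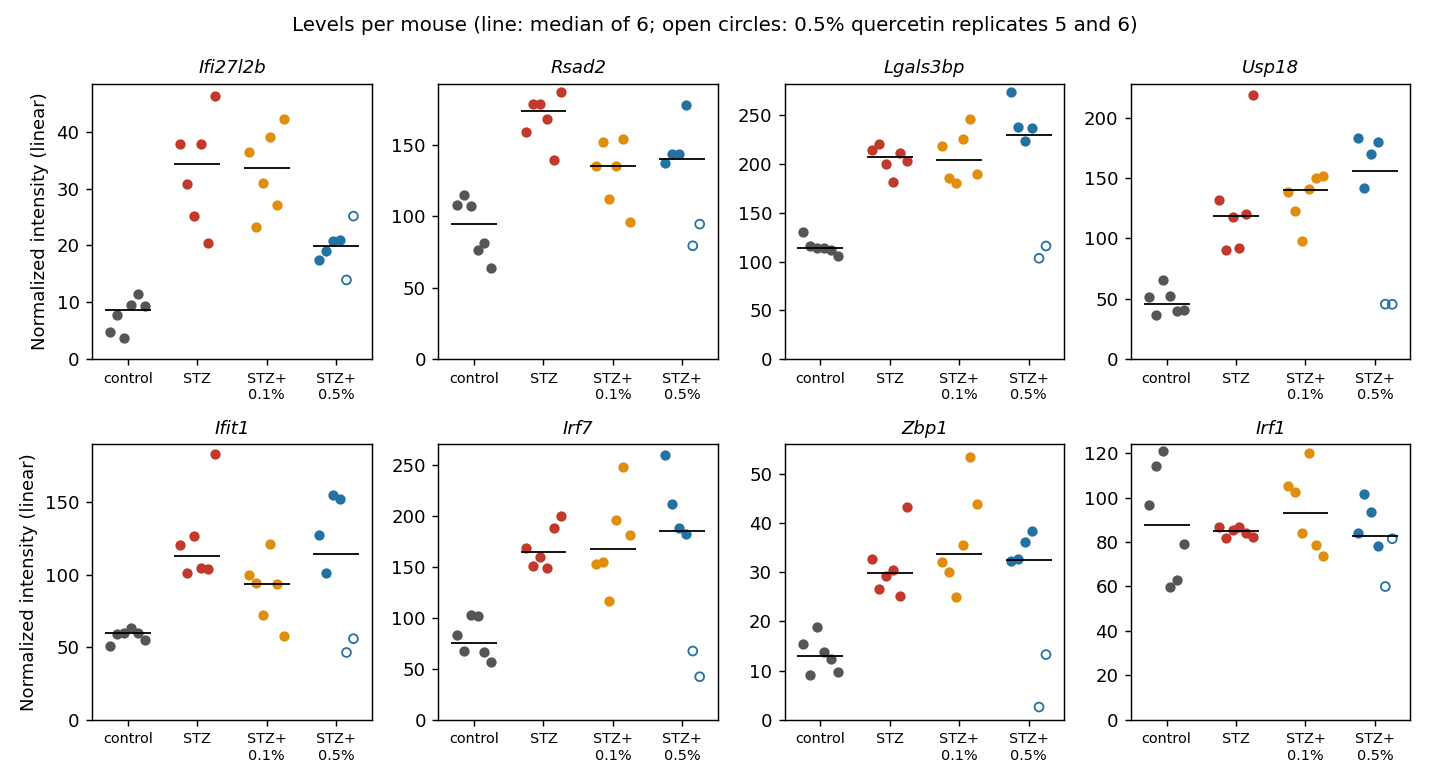
Normalized intensity on a linear scale for 8 interferon-stimulated genes, 1 point per mouse, with a line at the median of 6 and open circles for replicates 5 and 6 at 0.5% quercetin. For Usp18, Irf7, Lgals3bp and Zbp1 the open circles lie in or below the control range and the other 4 mice of that group in or above the STZ range, while for Ifi27l2b all 6 lie between 13.9 and 25.2, and for Irf1 all groups overlap.

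Both quercetin groups were also set against the same controls as the STZ group, so the 3 comparisons are not independent. At 0.1% quercetin 7 members were higher than in controls and 0 lower (limma adjusted p under 0.05), against 2.94% of all genes higher and 2.64% lower. Means were higher for 31 of 33 (46.3% of all genes), with a median of 0.33, and at an unadjusted p under 0.05 there were 17 higher and 0 lower, against 8.91% and 10% of all genes. The 7 were Usp18 at 1.24 (SE 0.25, limma adjusted p = 0.00351), Ifi27l2b at 1.05, Irf7 at 0.99, Zbp1 at 0.84, Lgals3bp at 0.76, Mx2 at 0.69 and Ifih1 at 0.55. Usp18 ran from 97.8 to 152 (median 140), Lgals3bp from 180 to 246 (median 204) and Zbp1 from 25.1 to 53.5 (median 33.8). All mice of this group lay above every control for these 3 genes, as they did for 9 members in all, against 2.10% of all genes. The summed Kupffer markers were 2023 to 2373 and the Gapdh difference was -0.32 ± 0.15 (SD, n = 6). The actin difference was 1.19 ± 0.13 (SD, n = 6). With the Gapdh difference as a covariate 1 of the 7, Ifi27l2b, passed. The median difference of members was then 0.24, and the share of all genes called in that fit is not given here. Ifit1, at 57.7 to 121 (median 93.8), overlapped the controls in 1 mouse and did not pass at 0.49 (SE 0.20, limma adjusted p = 0.162). Among pathway genes that are no members, Jak1 at 0.33 was higher, as 1 of 9 receptor and signalling genes. Irf2 at -0.44 was lower, as 1 of 9 negative regulators. Irf5 at -0.53 and Ticam1 at -0.46, an adaptor of Toll-like receptors, were lower, as 2 of 14 genes that sense nucleic acid. Of the 53 other interferon-induced genes 4 were higher, Oas1a at 0.79, Ifi27 at 1.00, Ifi27l2a at 0.52 and Nlrc5 at 0.44, and 1 was lower, Gm4951 at -0.33.

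At 0.5% quercetin 1 member was higher than in controls and 0 lower (limma adjusted p under 0.05), against 0.0534% of all genes higher and 0.0762% lower. It was Ifi27l2b at 0.58 (SE 0.12, limma adjusted p = 0.0442). Means were higher for 30 of 33 (45.9% of all genes), with a median of 0.30, and at an unadjusted p under 0.05 there were 18 higher and 0 lower, against 5.31% and 6.98% of all genes. Usp18 was at 1.02 (SE 0.25) and Lgals3bp at 0.63 (SE 0.16), and neither passed (limma adjusted p = 0.0761 for both). With 1 mouse left out the count ran from 0 to 6, at 5 without replicate 5 and 6 without replicate 6 of this group, and at 0 without control replicate 1, 2, 3 or 4 or any of replicates 1 to 4 of this group. Shares of all genes in those fits are not given here. The spread within this group was wide: Irf7 ran from 42.2 to 259 (median 185), Usp18 from 45.3 to 184 (median 156), Lgals3bp from 103 to 274 (median 230) and Zbp1 from 2.59 to 38.5 (median 32.5). Replicates 5 and 6 held the low end of each of these 4 genes. The median SD over the 33 members was 0.32, against 0.19 for controls, 0.18 for the STZ group and 0.22 for 0.1% quercetin, and over all genes it was 0.19 at 0.5% and 0.17 in controls.

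Replicates 5 and 6 had the lowest means over the members in their group, so leaving them out raises these differences by the choice itself, and the values without them are a description, not a test. Without them 14 members were past the threshold against controls at 0.5% quercetin, with 1.78% of all genes, and 13 of them were among the 15 higher in STZ livers, the other being Xaf1. Usp18 was then at 1.55, Irf7 at 1.25, Ifit1 at 1.00, Lgals3bp at 0.98 and Rtp4 at 0.88. In that fit, whose spread was shared by all groups, 18 members were higher in STZ livers (2.62% of all genes), with Cmpk2, Ifit3 and Xaf1 added to the 15, and 15 at 0.1% quercetin (3.57% of all genes), which include the 7.

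**Figure D4:**
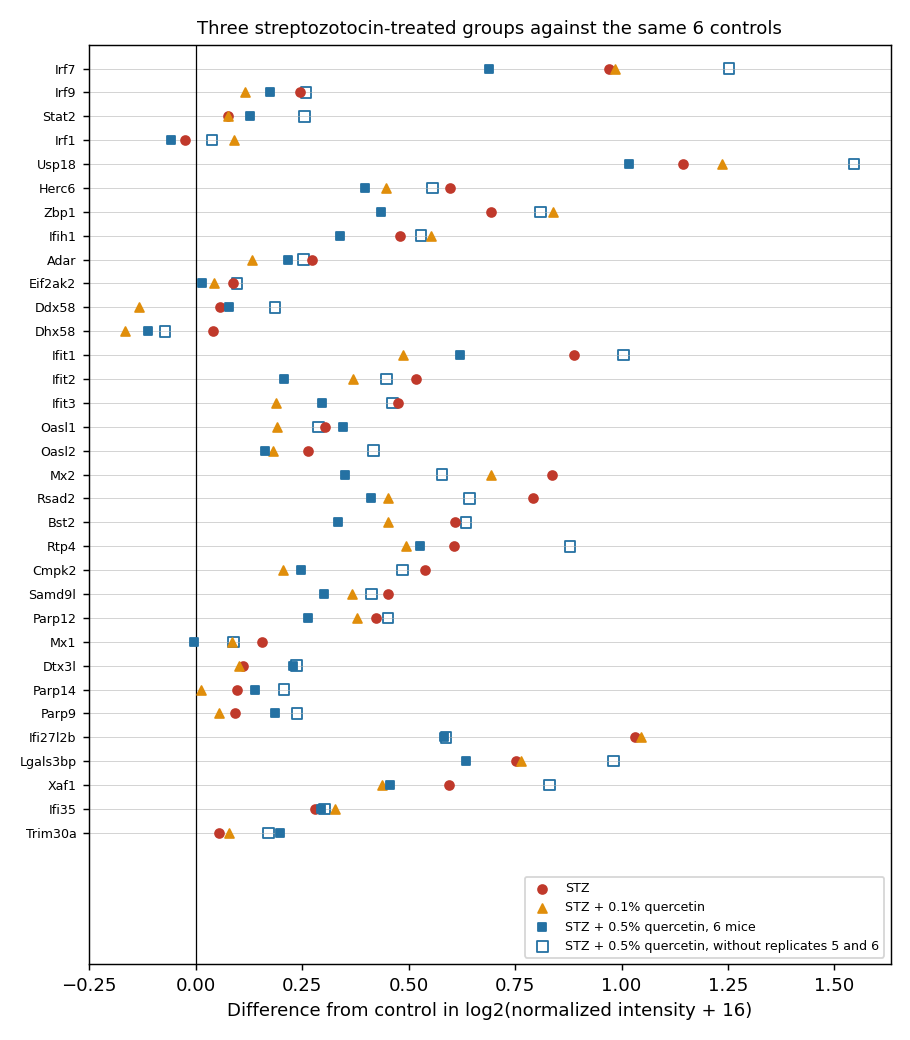
Difference from the same 6 controls in log2(normalized intensity + 16) for each gene in the 3 streptozotocin-treated groups, with open squares for the 0.5% group without replicates 5 and 6. The STZ and 0.1% points of Irf7, Lgals3bp and Ifi27l2b nearly coincide, and for Usp18 and Irf7 the open squares, at 1.55 and 1.25, stand above the other points of their gene.

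A mean over the 33 genes was taken for each mouse. This mean of the log2 level minus the control mean was 0.44 ± 0.12 (SD, n = 6) for the STZ group, 0.35 ± 0.13 for 0.1% quercetin and 0.31 ± 0.28 for 0.5% quercetin, with controls at 0 ± 0.073. In the STZ group replicate 6 was the highest mouse for 15 members and replicate 1 for 11. At 0.1% replicate 4 was highest for 16 members and replicate 3 lowest for 15. These means are a description of the set, and mice of a group have no order.

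Replicates 5 and 6 at 0.5% quercetin had means of -0.04 and -0.07, within the control range of -0.11 to 0.08, against 0.42 to 0.55 in the other 4 mice of the group. Of the 15 genes higher in STZ livers, replicate 5 lay above every control in 2, Samd9l and Ifi27l2b, and replicate 6 in 1, Ifi27l2b, against 13 to 15 in the other 4. Usp18 stood at 45.5 and 45.3 in these mice and Irf7 at 67.4 and 42.2. Their summed Kupffer markers, 1423 and 1392, were also within the control range, against 2106 to 2244 in the other 4 mice. Their Gapdh differences were -0.06 and 0.01, against -0.40 to -0.14. The labels place both mice in the 0.5% group, and neither an exchange of labels nor any other cause of their control-like values was tested.

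**Figure D5:**
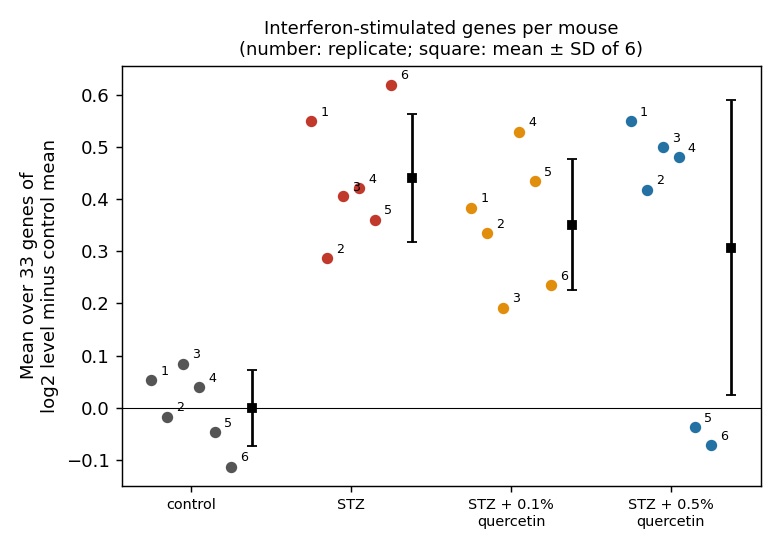
Mean over 33 interferon-stimulated genes of the log2 level minus the control mean, 1 numbered point per mouse, with squares and bars for the mean ± SD of 6. All STZ and 0.1% quercetin mice lie at 0.19 or above, and at 0.5% quercetin replicates 1 to 4 lie between 0.42 and 0.55 and replicates 5 and 6 below 0.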

How the data were processed

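The deposited values are linear probe set intensities for 45101 probe sets on 24 arrays, and the authors' summary method and scaling are not given in the sources used here. Biotin-labelled cRNA was hybridised, per the labels' protocols. The deposited intensities were quantile normalized across arrays, because array means differed by a ratio of 1.67, and turned into log2(value + 16). Probe sets were named from the platform's gene table (34945 with 1 symbol after removal of 64 controls, 932 with several, 9211 with none). The probe set with the highest mean log2 level stood for a gene, and genes under the 40th percentile of probe set means were left out. Groups were compared with limma 3.58.1 (R 4.3.3) in 1 fit with 4 group means, two-sided, with Benjamini-Hochberg adjustment over 13117 genes and a threshold of 0.05. The p-values treat mice as independent, and the number of arrays limits the precision. All members may be named, with per-group values for those past the threshold in STZ livers, and of other lists the genes past it plus a few preset ones. The members, the lists and the alternatives, among them the omission of 2 arrays, were chosen with earlier results of these data known. Scripts were tested on simulated data. What the replicate numbers stand for is not stated. Deviations from the group means had a median correlation of 0.01 over 36 same-numbered pairs of arrays and -0.01 over 180 other pairs. The deposited array means did share an order in 2 groups. In STZ and 0.1% quercetin mice they were lowest in replicate 2 (68.3 and 64.4) and highest in replicates 3 (92.8 and 91.0) and 6 (92.4 and 90.5).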

Additional observations from a re-analysis of the deposited data

Results flagged for a closer look

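In 6 of 136 group checks 1 mouse lay far from the other 5, and chance alone gives about 6.8. All values are log2(normalized intensity + 16). Ifit1 was 7.64 in STZ replicate 6, with the next mouse at 7.16. Adar was 6.91 in the same mouse, with the next at 6.49. Dhx58 was 6.01 in STZ replicate 1, with the next at 5.54. Samd9l was 5.72 in STZ replicate 2, below the next at 6.14. Rtp4 was 8.12 in replicate 4 at 0.1% quercetin, above the next at 7.77. Dtx3l was 6.98 in control replicate 4, below the next at 7.23.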

How the results depend on the processing

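Of 23 calls of a member against controls, 0 changed direction under any of 25 settings each. Ifi27l2b kept its call in all 25 in STZ and 0.1% quercetin livers, and the other 21 lost it in at least 1. Usp18, Ifit1, Rsad2, Mx2 and Lgals3bp in STZ livers lost it only with the Gapdh 3' minus 5' difference as a covariate. The 15 members higher in STZ livers became 9 on the values as deposited, 9 with a pseudocount of 1, 1 with the Gapdh covariate, and 7 to 13 with 1 array left out. The lower counts came without control replicates 2 (9), 5 (7) or 6 (8) or STZ replicates 3 (8) or 6 (8). The 7 higher at 0.1% quercetin became 1 with the Gapdh covariate, 13 in a fit of the 2 groups alone, 15 without replicates 5 and 6 of the 0.5% group, and 6 to 8 with 1 array left out. The 1 higher at 0.5% became 0 on values as deposited, with a pseudocount of 64, without the filter, with the Gapdh covariate and in a fit of the 2 groups alone, 2 with median scaling or the mean of all probe sets, 14 without replicates 5 and 6, and 0 to 6 with 1 array left out (5 without replicate 5, 6 without replicate 6, and 0 without control replicates 1, 2, 3 or 4 or 0.5% replicates 1, 2, 3 or 4). Calls over all genes fell as well on values as deposited. Higher calls went from 266 to 120 in STZ livers, 385 to 127 at 0.1% quercetin and 7 to 2 at 0.5%. With median scaling the calls over all genes at 0.5% went from 7 to 37 higher and from 10 to 649 lower. For most other settings the share of all genes is not given here. The cause of these changes was not tested. Counts of lower members, and all counts between streptozotocin-treated groups, were 0 in every setting run. With the replicate number as a block, the counts were 15, 9 and 1, and 13 of the 15 were shared. Of the 24 arrays 5 correlated best with their own number. Of all calls in STZ livers 54.5% were higher, 74.5% on values as deposited and 37.9% with median scaling, while member means were higher for 32, 33 and 32 of 33.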
